A study of Mus musculus with 2 samples.

Results

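The proteasome is the protease that degrades proteins tagged with ubiquitin. The genes of its constitutive form were followed here in cultured mouse dermal cells treated to reduce the messenger RNA of β-catenin. The genes were chosen by symbol: all those that begin with Psma, Psmb, Psmc or Psmd and a digit, apart from Psmb8, Psmb9 and Psmb10, the catalytic subunits of the interferon-inducible form. The rule took in 37 of the 19938 genes measured, 16 for the 20S core (Psma and Psmb) and 21 for the 19S regulatory particle (Psmc and Psmd). Of these, 31 encode constitutive subunits. The other 6 are Psma8 and Psmb11, core subunits of testis and thymus, Psmd5, Psmd9 and Psmd10, which are chaperones of 19S assembly, and Psmc3ip, which encodes a partner of meiotic recombination proteins and shares only the start of its symbol.

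Cells were taken from the dorsal skin of newborn C57BL/6 mice, grown for 24 h in medium with 10% serum, and transfected for 48 h with 10 nM siRNAs (short RNA duplexes that direct cleavage of a matching messenger RNA). The β-catenin siRNA group and the control siRNA group had 1 array each, an Affymetrix whole-transcript array labelled from 300 ng of total RNA. Both groups were therefore transfected, and untransfected cells were not analysed here. The labels do not give the number of cultures or pups behind an array, so siRNA, culture and array cannot be told apart.

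Each value is a log2 signal after robust multi-array average (RMA) normalization, which draws the distributions of the arrays together (their sorted values differ by at most 0.123), so that each difference is relative to the other genes. All differences are β-catenin siRNA minus control siRNA on the log2 scale. They are single subtractions without replicate error, and no test was possible. A gene was kept when the higher of its values reached 5.13, the median of all gene means, which left 10197 genes. As a guide to scale, the robust SD of the difference was 0.22 over the kept genes, and 0.18 over the 4716 genes with both values at or above the 75th percentile of gene means. That spread mixes array noise, differences between cultures and any effect of the siRNA.

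The target transcript Ctnnb1, which encodes β-catenin, had a log2 value of 9.34 with β-catenin siRNA and 10.48 with control siRNA, so 45.2% of the control signal remained. All 10 measured fibroblast markers passed the level filter, among them the collagen genes Col1a1 (12.71 with β-catenin siRNA, 12.77 with control siRNA) and Col1a2 (12.67 and 12.71, in the same order). Of these 10 markers 6 were higher, against 45.8% of all kept genes, and 4 lower, against 52.8%. Past 1.5-fold were 3 of them, all higher, against 2.76% of all kept genes: Lum (difference 1.29), Dcn (0.84) and Pdgfra (0.75). Markers of other cell types also moved. Of 12 keratinocyte markers 5 passed the filter, with differences from 0.50 (Epcam, which passed only through the β-catenin siRNA array) to 1.02 (Krt5). Under the filter, Krt15 (-0.55) and Lor (-0.70) went the other way. The summed linear signal of the 12 was 1210 with β-catenin siRNA and 764 with control siRNA. The keratinocyte genes Trp63, Krt1, Krt10 and Ivl also lay under the filter on both arrays. Of 8 myeloid markers only Lyz2 passed it, and only through the β-catenin siRNA array (5.38 with β-catenin siRNA, 4.75 with control siRNA, a difference of 0.63). The summed signal of the 8 was 122 and 120 in the same order. Of the 6 markers of pericytes and smooth muscle 5 passed, 4 of which were lower, against 52.8% of all kept genes. The smooth muscle gene Cnn1 led (difference -1.09). The summed signal of the 6 was 8450 with β-catenin siRNA and 10037 with control siRNA. The summed signals were 112 and 116 for 6 endothelial, 165 and 194 for 6 melanocyte, 122 and 115 for 6 skeletal muscle and 99.0 and 91.6 for 4 Schwann cell markers, in the same order. The part of these shifts in the proteasome values was not tested, and in a bulk sample fewer cells of a type and less RNA per cell cannot be told apart.

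The 20S core is a barrel of 4 stacked rings. The outer rings are made of α subunits, which form the gate, and the inner rings of β subunits, of which the products of Psmb5, Psmb6 and Psmb7 carry the proteolytic sites inside the barrel. The 19S particle caps the barrel. Its base holds a ring of 6 different ATPases that unfold substrates and open the gate, and its lid removes the ubiquitin chain. β-catenin is itself a substrate of this machine: in cells without a Wnt signal it is phosphorylated, tagged by the SCF ubiquitin ligase with β-TrCP, and degraded by the proteasome. When proteasome activity is short, the transcription factor NFE2L1 is known to raise the transcription of the subunit genes together.

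Proteasome genes were mostly lower with β-catenin siRNA, each by a small amount. Of the 37 genes, 35 passed the level filter, and 30 of these 35 were lower, against 52.8% of all kept genes, and 5 higher, against 45.8%. Of the 35, 12 were at least 1.2-fold lower, against a background of 13.7%, and 0 were at least 1.2-fold higher, against 11.7%. None of the 35 reached 1.5-fold in either direction, where the background was 1.84% lower and 2.76% higher. The median difference was -0.14, that is 90.5% of the control signal, beside -0.02 over all kept genes. Differences ran from -0.41 (Psmb5) to 0.11 (Psmd10). Many of them are smaller than the robust SD of 0.22, so the shift lies in the number of genes on one side and not in the size of any single difference.

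**Figure D1:**
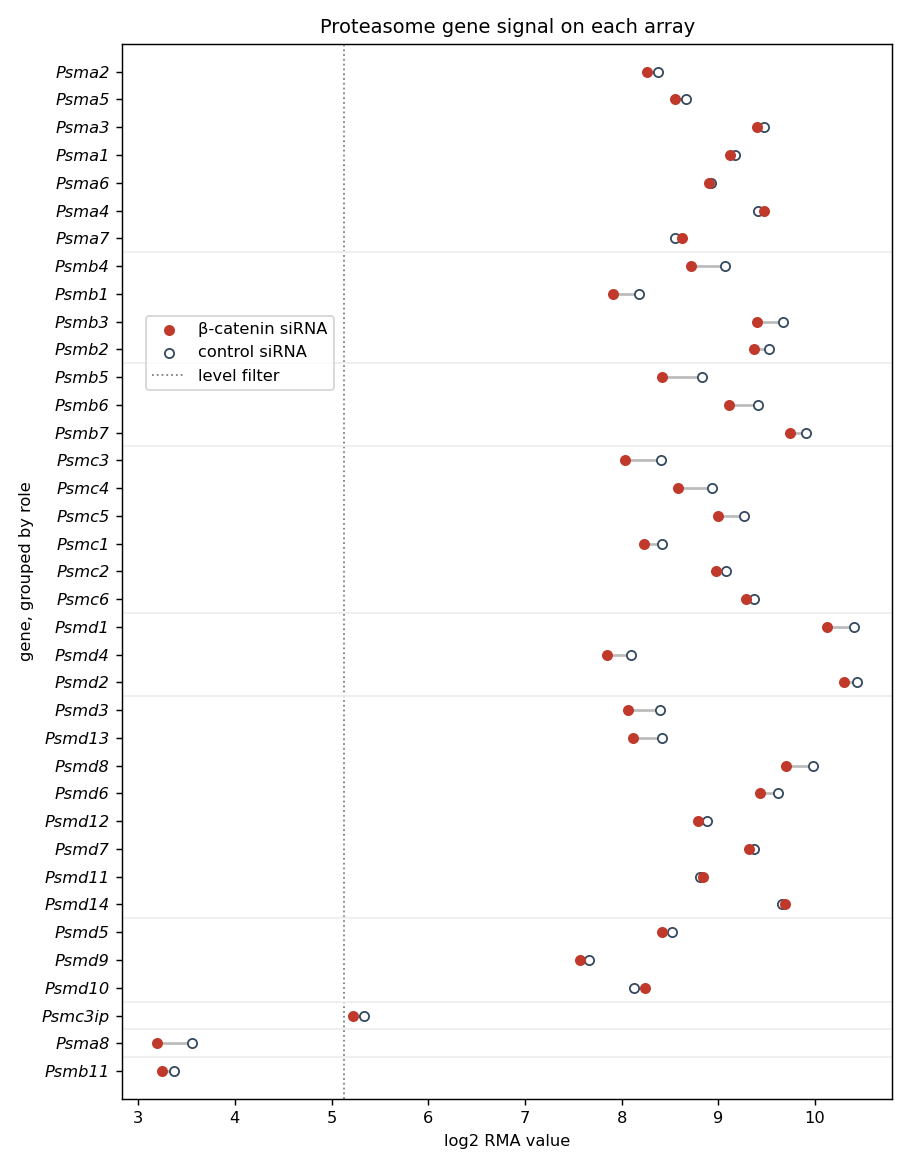
Log2 RMA value (x axis) of each of the 37 proteasome genes (y axis, grouped by role) with β-catenin siRNA (filled red) and control siRNA (open), 1 array each; the dotted line is the level filter at 5.13. In most rows the red point lies slightly to the left, and only Psma8 and Psmb11 lie below the filter on both arrays.

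The constitutive subunit genes were bright on both arrays, from 7.85 to 10.29 with β-catenin siRNA and from 8.09 to 10.44 with control siRNA. The assembly chaperone genes were somewhat dimmer, with medians of 8.24 with β-catenin siRNA and 8.13 with control siRNA. The constitutive subunit medians were 8.97 and 9.08 in the same order. Psma8, Psmb11 and Psmc3ip were dim. Psma8, whose product replaces that of Psma7 in testis, was at 3.20 with β-catenin siRNA and 3.55 with control siRNA. Psmb11, the thymus-specific counterpart of Psmb5, was at 3.25 and 3.37 in the same order. Psmc3ip passed the filter narrowly, at 5.23 with β-catenin siRNA and 5.34 with control siRNA. With the stricter level filter, which asks that both values reach the 75th percentile of gene means, 12 of 34 proteasome genes were at least 1.2-fold lower, beside 11.9% of all 4716 genes that passed it.

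The core and the 19S particle had nearly the same median. The 14 kept core genes had a median difference of -0.13, with 12 lower and 5 at least 1.2-fold lower. The 21 genes with a Psmc or Psmd symbol had a median of -0.14, with 18 lower and 7 at least 1.2-fold lower. Both stand beside 52.8% of all kept genes lower and 13.7% at least 1.2-fold lower. The medians differed by 0.011 (core minus 19S), and the sign of this small value turned when probe sets of a gene were averaged (-0.016), when the dimmest probe set was used (-0.023), when Sem1 was added (-0.0058) and among genes with a single probe set (-0.040). With the 17 genes for 19S subunits in place of the symbol rule, the 19S median was -0.19 and core minus 19S was 0.060.

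**Figure D2:**
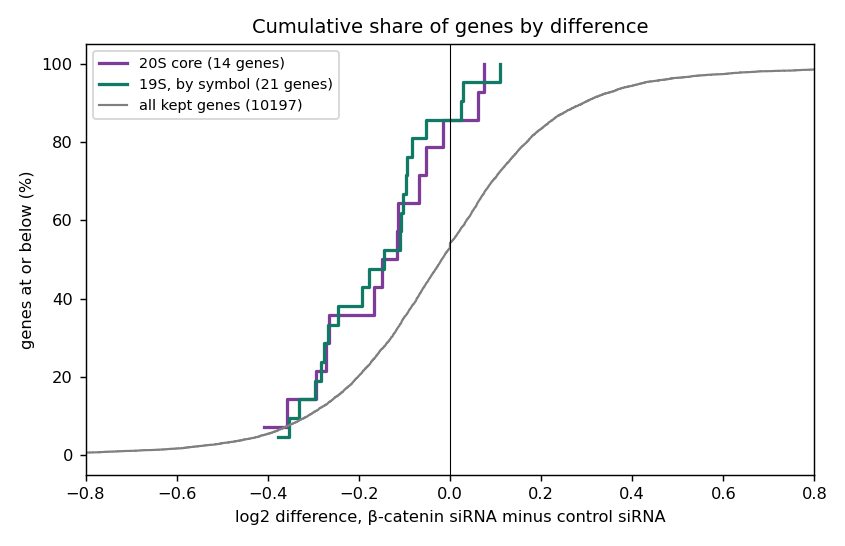
Cumulative share of genes (y axis, %) at or below a given log2 difference (x axis, β-catenin siRNA minus control siRNA) for 14 core genes, 21 genes with a 19S symbol and all 10197 kept genes. The core and 19S curves run close together and both lie to the left of the curve of all kept genes, with medians of -0.13, -0.14 and -0.02.

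Within the core, the β ring genes were lower than the α ring genes. All 7 constitutive β genes had negative differences, against 52.8% of all kept genes, and 5 were past 1.2-fold, against 13.7%. These differences ran from -0.41 to -0.15 with a median of -0.27. Of the 7 constitutive α genes, 5 were lower and 2 higher, none reached 1.2-fold, and the differences ran from -0.12 to 0.08 with a median of -0.05. The rings did not overlap, although the gap between the highest β gene and the lowest α gene was only 0.034. That gap is small beside the pooled SD of 0.16 between differences from probe sets of the same gene. The rings were also apart after either centring, with either other choice of probe set and with the stricter level filter. Without the level filter Psma8 (-0.35), dim on both arrays, falls among the β genes. The subunits of a ring are not replicates of a condition, so no test was made.

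**Figure D3:**
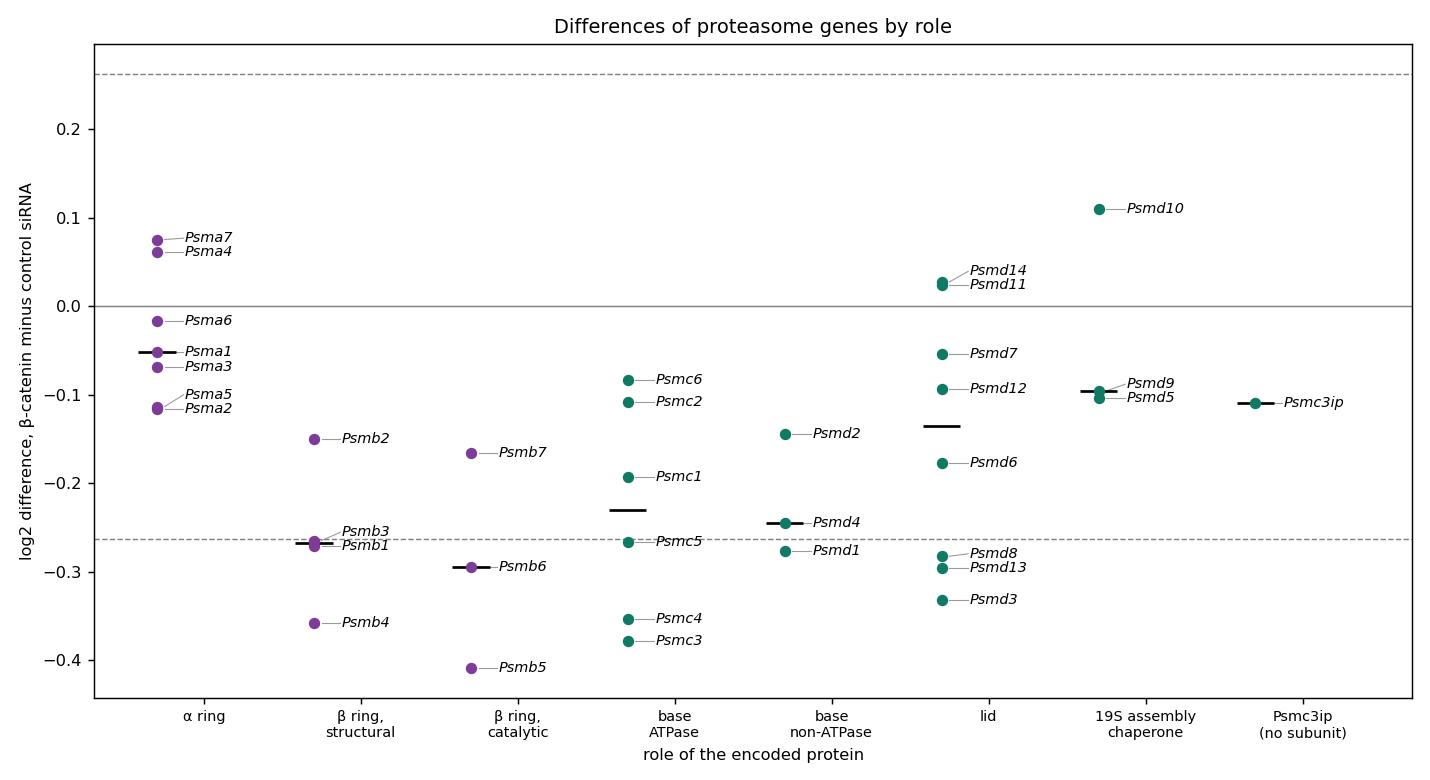
Log2 difference (y axis, β-catenin siRNA minus control siRNA) of each of the 35 kept proteasome genes by the role of its product (x axis); black bars are medians, dashed lines mark 1.2-fold. The 7 β ring genes lie between -0.41 and -0.15, below all 7 α ring genes.

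The catalytic genes included the member with the largest negative difference. Psmb5, which encodes the chymotrypsin-like protease and main target of the drug bortezomib, had a log2 value of 8.42 with β-catenin siRNA and 8.83 with control siRNA, a difference of -0.41 or 1.33-fold lower. Of all kept genes, 5.15% had a lower difference. Psmb6, the caspase-like protease, was at 9.11 with β-catenin siRNA and 9.41 with control siRNA, 1.23-fold lower. Psmb7, the trypsin-like protease, was at 9.74 and 9.90 in the same order, a difference of -0.17. Thus the 3 catalytic genes were all lower, but 24.8% of kept genes had a lower difference than Psmb7.

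The β subunits without a proteolytic site had differences from -0.36 to -0.15, beside -0.41 to -0.17 for the catalytic ones. Psmb4 had a log2 value of 8.71 with β-catenin siRNA and 9.07 with control siRNA, 1.28-fold lower. Psmb1 was at 7.91 with β-catenin siRNA and 8.18 with control siRNA, 1.21-fold lower. Psmb3 was at 9.40 and 9.67 in the same order, a difference of -0.26, and Psmb2 at 9.37 and 9.52, a difference of -0.15. Psmb4, Psmb1 and Psmb3 were thus past 1.2-fold, the last of them only just. A second probe set of Psmb3 had 8.40 with β-catenin siRNA and 8.83 with control siRNA, a larger difference of -0.43.

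The α genes lay close to 0 on both sides. Psma2 and Psma5 had the lowest differences, -0.12 and -0.11, with log2 values of 8.26 and 8.55 with β-catenin siRNA, against 8.38 and 8.66 with control siRNA. Psma3 was at 9.40 with β-catenin siRNA and 9.47 with control siRNA. Its other probe sets had differences of -0.09 and 0.17, so its direction depended on the probe set. Psma1 had values of 9.12 and 9.17 in the same order and Psma6 8.90 and 8.92. Psma4 and Psma7 were the only kept core genes that were higher. Psma4, whose yeast counterpart carries the tail at the centre of the gate, was at 9.47 with β-catenin siRNA and 9.41 with control siRNA, and Psma7 at 8.63 and 8.55, differences of 0.06 and 0.08.

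Promoters were compared because the core genes at either end of the range belong to the same particle. RefSeq promoter sequences (GRCm38.p6) were matched for 30 of the 37 genes, but not for Psma8, Psmb1, Psmb2, Psmb7, Psmc3, Psmd3 and Psmd7. The 250 bases before the annotated start were searched on both strands for the NF-Y box CCAAT, the antioxidant response element TGACNNNGC bound by NFE2L1 and NFE2L2, and the ETS box CCGGAAG. The windows of Psmb5, the matched subunit gene with the lowest difference, and of Psma7, the one with the highest, are printed 5′ to 3′ on the transcript's strand. Capitals mark the motif matches, an antioxidant response element in Psmb5 and an NF-Y box in Psma7.
Psmb5, chr14:54617996-54618245, minus strand: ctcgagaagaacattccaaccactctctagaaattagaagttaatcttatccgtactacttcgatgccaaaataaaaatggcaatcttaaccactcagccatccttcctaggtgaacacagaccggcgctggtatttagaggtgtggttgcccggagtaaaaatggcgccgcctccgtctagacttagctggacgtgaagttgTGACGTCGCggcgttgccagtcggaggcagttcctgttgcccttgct
Psma7, chr2:180042465-180042714, minus strand: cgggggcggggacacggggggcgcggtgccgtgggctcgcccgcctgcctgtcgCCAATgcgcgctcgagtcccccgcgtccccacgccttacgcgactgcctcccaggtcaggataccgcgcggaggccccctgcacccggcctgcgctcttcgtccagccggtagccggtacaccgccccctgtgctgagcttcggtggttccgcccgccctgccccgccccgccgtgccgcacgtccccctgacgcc

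The antioxidant response element was found in 4 of the 25 matched constitutive subunit genes (16%), beside 13.9% of the 8279 kept genes and 11.5% of all 27025 genes with a promoter sequence. The matches are printed with up to 10 bases on each side, in order of difference from Psmb5 to Psmc6. Capitals mark the element, read on the opposite strand in Psmd12 and Psmc6.
Psmb5, chr14:54618024-54618052, minus strand: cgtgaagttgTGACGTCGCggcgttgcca
Psmb6, chr11:70525338-70525356, plus strand: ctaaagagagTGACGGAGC
Psmd12, chr11:107479278-107479299, plus strand: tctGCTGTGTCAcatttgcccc
Psmc6, chr14:45329587-45329615, plus strand: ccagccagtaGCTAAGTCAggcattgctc

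These matches fell in genes with large differences (Psmb5 -0.41, Psmb6 -0.29) as well as small ones (Psmd12 -0.09, Psmc6 -0.08). No α gene held the element in this window, beside 2 of the 4 matched β genes. The NF-Y box stood in 10 of the 25 matched constitutive subunit genes (40%), beside 40.4% of kept genes and 37.5% of all genes. By part, it stood in 5 of 7 α genes, 1 of 4 β genes and 4 of 14 genes for 19S subunits. The share over all subunit genes was thus that of the background. A match is a run of letters and was not tested as a binding site, and a gene without one may hold it outside these 250 bases.

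The base of the 19S particle was lower throughout. All 9 base genes had negative differences, against 52.8% of all kept genes, and 4 were past 1.2-fold, against 13.7%. The median of the base was -0.24. Psmc3, an ATPase whose tail docks into the α ring and opens the gate, had the second largest negative difference of the kept members, with a log2 value of 8.03 with β-catenin siRNA and 8.41 with control siRNA, a difference of -0.38. Psmc4 was at 8.58 with β-catenin siRNA and 8.93 with control siRNA, 1.28-fold lower. Psmc5 was at 8.99 and 9.26 in the same order, a difference of -0.27 and just past 1.2-fold. The other ATPase genes differed less. Psmc1 was at 8.23 with β-catenin siRNA and 8.42 with control siRNA, and its second probe set gave a like difference (-0.23 beside -0.19). Psmc2 had a difference of -0.11, with 8.97 and 9.08 in the same order, and Psmc6 one of -0.08, with 9.29 and 9.37.

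The non-ATPase genes of the base were also lower. Psmd1, a scaffold subunit, was at 10.12 with β-catenin siRNA and 10.40 with control siRNA, 1.21-fold lower. Psmd2, the docking site for shuttle proteins that bring ubiquitylated substrates, was at 10.29 with β-catenin siRNA and 10.44 with control siRNA, and its second probe set differed by -0.09 beside -0.14. Psmd4, a ubiquitin receptor at the junction of base and lid that is counted here with the base, was at 7.85 with β-catenin siRNA and 8.09 with control siRNA, a difference of -0.24.

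The lid was uneven. Of 8 lid genes 6 had negative differences, against 52.8% of all kept genes, and 3 were past 1.2-fold, against 13.7%. The median of the lid was -0.14. Psmd3 was at 8.07 with β-catenin siRNA and 8.40 with control siRNA, 1.26-fold lower, Psmd13 at 8.12 and 8.42, 1.23-fold lower, and Psmd8 at 9.70 and 9.98, 1.22-fold lower. Psmd6 differed by -0.18, with 9.43 with β-catenin siRNA and 9.61 with control siRNA. The remaining lid genes hardly differed. Psmd12 was at 8.79 with β-catenin siRNA and 8.88 with control siRNA, and Psmd7, the inactive partner of the lid's deubiquitinase, at 9.32 and 9.37. Psmd14, which encodes that deubiquitinase, was at 9.69 with β-catenin siRNA and 9.66 with control siRNA. Psmd11, a lid subunit that helps to hold the 19S particle on the core, was at 8.84 and 8.81 in the same order.

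The chaperones of 19S assembly were not past 1.2-fold. Psmd5 differed by -0.10 (8.42 with β-catenin siRNA, 8.52 with control siRNA) and Psmd9 by -0.10 (7.56 and 7.66). Psmd10, which encodes the oncoprotein gankyrin, had the highest difference of all 37 genes, 0.11 (8.24 with β-catenin siRNA, 8.13 with control siRNA). Psmc3ip, which is no proteasome gene, differed by -0.11. Leaving out these genes with Psma8 and Psmb11 moved the median of the list to -0.17 over 31 subunit genes. Among these 31, 27 were lower and 12 at least 1.2-fold lower, against 52.8% and 13.7% of all kept genes.

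The ETS box was found in 8 of the 14 matched 19S subunit genes (57.1%), in 1 of 7 α genes and in 0 of 4 β genes, beside 16.7% of kept genes and 7.83% of all genes. The stretches are printed as above, with the box in capitals (CTTCCGG where it lies on the opposite strand). Psmc2 has a pair of annotated starts, each with a box.
Psmd4, chr3:95042723-95042749, minus strand: tacagctgttCCGGAAGctgctgcgaa
Psmc1, chr12:100110164-100110190, plus strand: ggtggatgcaCTTCCGGcggtggcgat
Psmd6, chr14:14120974-14121000, minus strand: agagacgcgaCCGGAAGtcagactggc
Psmd2, chr16:20651616-20651642, plus strand: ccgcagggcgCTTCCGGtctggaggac
Psmc2, chr5:21785181-21785207, plus strand: ccagtgagcaCTTCCGGgatggggctc
Psmc2, chr5:21786713-21786739, plus strand: cgcggagctaCTTCCGGtggggaagag
Psmd12, chr11:107479501-107479527, plus strand: gagcgggcgaCTTCCGGtgcgagtgac
Psmc6, chr14:45329714-45329740, plus strand: ggcgggccagCCGGAAGgggcggagcc
Psma6, chr12:55398683-55398709, plus strand: gagccaccacCCGGAAGcccgcggacc
Psmd11, chr11:80428594-80428614, plus strand: gagggcgggtCTTCCGGgtgt

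The matched 19S subunit genes with a box had a median difference of -0.13, and the 6 without one a median of -0.28. Among matched genes, those with a box thus had the smaller differences at the median. Psmc3 (-0.38), Psmd3 (-0.33) and Psmd7 (-0.05), without a matched promoter, are in neither group and could shift these medians. In the printed stretches no match of one motif overlapped a match of another.

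**Figure D4:**
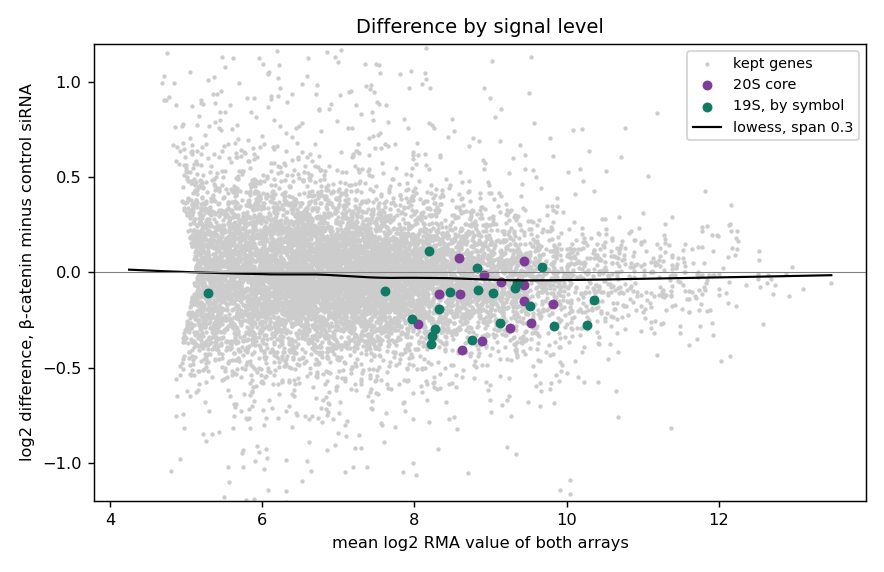
Log2 difference (y axis, β-catenin siRNA minus control siRNA) against mean log2 RMA value of both arrays (x axis) for all kept genes (grey; differences beyond 1.2 are off the plot), core genes (purple) and genes with a 19S symbol (green), with a lowess curve of span 0.3 (black). The curve runs slightly below 0 at the level of the proteasome genes, most of which lie below the curve.

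The typical difference of all genes was slightly negative at the level of the proteasome genes, as the plot of difference against level shows. With differences centred on that curve (lowess), the median over the 35 kept genes was -0.11, beside 0.0042 over all kept genes. Of the 35, 29 were lower (the share of all kept genes lower was not counted after centring). Only 6 were at least 1.2-fold lower, beside 12.2% of all kept genes. These 6 were Psmb5 and Psmb4 of the β ring, Psmc3 and Psmc4 of the base, and Psmd3 and Psmd13 of the lid. After median centring 8 members were at least 1.2-fold lower, beside 12.3%. The β ring median was then -0.24 and the α ring median -0.01 after lowess centring, and -0.25 and -0.03 after median centring. Thus the count past 1.2-fold rested in part on genes close to that size. The number of members on the lower side was 29 after either centring, against 30 in the main setting.

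The inducible form and its activators did not share the shift. Psmb9, an interferon-induced subunit that takes the place of Psmb6, was higher by 0.27, just past 1.2-fold, with a log2 value of 6.04 with β-catenin siRNA and 5.78 with control siRNA. Psmb8, which takes the place of Psmb5, lay under the filter, at 4.71 with β-catenin siRNA and 4.51 with control siRNA. Psmb10, which takes the place of Psmb7, was at 6.00 and 6.09 in the same order. Psme1 and Psme2, subunits of the PA28 cap, differed by 0.04 and 0.17. The 4 kept genes of this list had a median of 0.11, and 3 were higher, against 45.8% of all kept genes. Whether the inducible and constitutive genes differ in response could not be tested with 1 array each.

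Other factors of proteasome assembly and activity went both ways, with list medians near 0. The alternative cap genes Psme3 and Psme4 differed by 0 and 0.09, and the inhibitor gene Psmf1 by -0.15. Of the core assembly chaperones, Pomp, the maturation factor of the β ring, was at 10.09 with β-catenin siRNA and 10.17 with control siRNA, and Psmg1 and Psmg2 differed by -0.02 and 0.05. The dim genes Psmg3 and Psmg4 differed by -0.09 and 0.06. The 6 kept genes for proteins bound to the 19S particle had a median of -0.0048. Among them Sem1, a small lid subunit without a Psmd symbol, differed by -0.05, Uchl5, a deubiquitinase, by 0.21 and Ecpas by 0.15. None of these 3 lists had a gene past 1.2-fold, beside 13.7% of all kept genes at least 1.2-fold lower and 11.7% higher.

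Genes upstream of the proteasome went both ways. Of 5 kept genes for ubiquitin activation and shuttle proteins 4 were lower, against 52.8% of all kept genes, with a median of -0.17. Uba6, a ubiquitin-activating enzyme, was 1.33-fold lower, at 9.12 with β-catenin siRNA and 9.53 with control siRNA. Ubqln2, a shuttle factor, was 1.24-fold higher, and Ubqln1 differed by -0.18. The ubiquitin genes and Uba1 were not analysed here. Of 6 genes for the p97 unfoldase and its cofactors 4 were lower, against the same 52.8%, with a median of -0.09. None of the 6 was past 1.2-fold, beside 13.7% of kept genes at least 1.2-fold lower. Nploc4 differed by -0.22, Ubxn1 by -0.13 and Nsfl1c by -0.12.

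The ligase genes of β-catenin itself had a median of 0.08 over 5 genes. Skp1, the adaptor of SCF ligases, was 1.40-fold higher, at 8.96 with β-catenin siRNA and 8.48 with control siRNA, and Cul1, their scaffold, was 1.26-fold higher, at 9.09 and 8.76 in the same order. Rbx1, the RING subunit, differed by -0.21. Btrc and Fbxw11, the β-TrCP genes of this list, differed by only 0.08 and -0.0065. Skp1 and Cul1 thus went in the opposite direction to most proteasome genes.

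Among genes around the known regulators of proteasome genes, the list of NFE2L1 route and NF-Y genes went both ways. The NFE2L2 list was mostly lower. Nfe2l1 was at 9.53 with β-catenin siRNA and 9.48 with control siRNA; it is not among the 3 genes with the largest differences of its list and was chosen after its value was seen. The list of the NFE2L1 route had 8 kept genes. Nfya, Nfyb and Nfyc among them encode NF-Y, which binds the CCAAT box. Ngly1, the glycanase that helps to activate NFE2L1, was 1.32-fold higher, whereas Maff differed by -0.22. Of the NF-Y genes, Nfyb differed by -0.18. The list's median was -0.07. Of 9 genes for NFE2L2, its inhibitor and its targets 7 were lower, against 52.8% of all kept genes. None of these 9 was past 1.2-fold, beside 13.7% of kept genes at least 1.2-fold lower. Nfe2l2 itself differed by 0.09, also chosen after its value was seen. The median of the 9 was -0.14, beside -0.14 for the proteasome list, where 12 of 35 were at least 1.2-fold lower. Whether these medians share a cause was not tested. Srxn1, Gclc and Slc7a11, antioxidant and glutathione genes, differed by -0.20, -0.20 and -0.19.

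Other large complexes were set beside the proteasome. The COP9 signalosome, whose subunits are related to those of the lid, had a median of -0.05 over 10 genes. Of these 10, 5 were lower, against 52.8% of all kept genes, and none was past 1.2-fold, beside 13.7% at least 1.2-fold lower. Gps1 (-0.24), Cops7b (-0.19) and Cops9 (-0.14) had the largest differences. The CCT chaperonin had a median of -0.04 over 8 genes, where Cct7 (-0.20), Cct5 (-0.16) and Cct3 (-0.15) led. Cytosolic ribosomal protein genes had a median of -0.02 over 56 genes, with Rps19 at -0.43, Rps3a1 at 0.38 and Rps21 at -0.34. These complexes lay near the median of all kept genes.

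Mitochondrial complexes also had lower medians. Their counts stand beside 52.8% of all kept genes lower and 13.7% at least 1.2-fold lower. Genes of respiratory complex I (symbols in Nduf, assembly factors included) had a median of -0.18 over 39 genes, with 31 lower and 10 at least 1.2-fold lower, led by Ndufa7 (-0.58), Ndufb8 (-0.41) and Ndufc2 (-0.40). ATP synthase genes (symbols in Atp5) had a median of -0.17 over 17 genes, led by Atp5g1 (-0.56), Atp5e (-0.47) and Atp5g3 (-0.42). Of these 17, 13 were lower and 6 at least 1.2-fold lower (35.3%, beside 34.3% of the kept proteasome genes). Mitochondrial ribosomal protein genes had a median of -0.12 over 76 genes, led by Mrps24 (-0.65), Mrpl28 (-0.39) and Mrpl43 (-0.39). Of these 76, 52 were lower and 14 at least 1.2-fold lower. A lower median and a share above 13.7% at least 1.2-fold lower were thus not particular to the proteasome on these arrays.

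**Figure D5:**
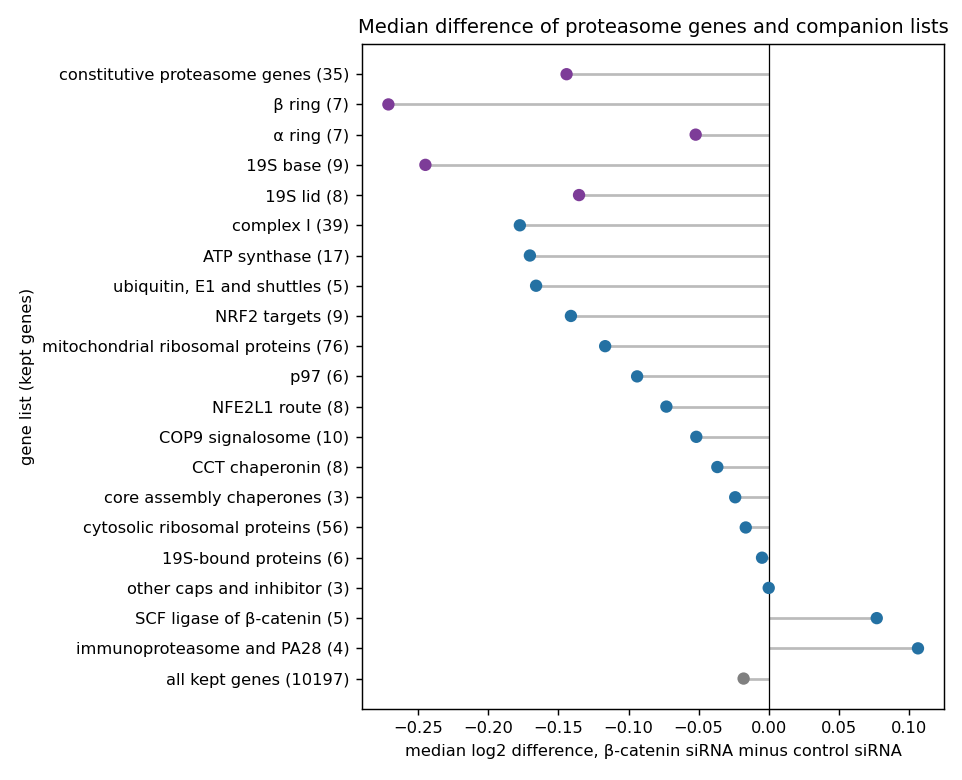
Median log2 difference (x axis, β-catenin siRNA minus control siRNA) of the proteasome genes and their rings, base and lid (purple), of companion lists (blue, ordered by median) and of all kept genes (grey); the number of kept genes is in brackets. The β ring (-0.27) and the 19S base (-0.24) lie lowest, and the inducible subunit and PA28 list (0.11) highest. The NFE2L1 route list includes the NF-Y genes.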

How the data were processed

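Per the submitters' processing notes, the authors made the deposited log2 values with RMA, 1 per probe set and array. Software, version, filters and genome build: not given in the sources used here. The log2 scale was judged from the range, 0.485 to 13.5. Sorted values of the arrays differed by at most 0.123. Detection calls were not used, so depth means signal level only.

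Of 28944 probe sets, 21789 had 1 gene symbol in the platform annotation, 1621 several and 5534 none. Symbols of 21698 were updated from RefSeq (GRCm38.p6). The brighter probe set by mean over both arrays stood for a gene; 5 of the 37 members had more than 1. Differences were β-catenin siRNA minus control siRNA, and counts used 1.2-fold and 1.5-fold. There was 1 array per group, so no test, p-value or SD between replicates is given. Between probe sets of the same gene, the β-catenin siRNA minus control siRNA difference, not the signal, varied with a pooled SD of 0.16 (594 genes). RMA leaves 140 kept genes with equal values on both arrays.

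The members and lists were chosen with earlier results of these data known. Named genes are all members, Ctnnb1 and the 3 kept genes with the largest absolute difference of each companion list; values of further list genes were chosen after they were seen. Kinase genes (Rps6k) and pseudogenes were left out of the ribosomal list. Some genes of the companion and marker lists, among them Fbn1, Adrm1, Paaf1, Ddi2 and the ubiquitin genes, were not analysed here. Alternatives were other centrings, probe sets, level filters and memberships. Counting and lowess centring (span 0.3) were tested on simulated data. The lowered genes there differed by more than any proteasome gene here, so counts close to 1.2-fold were not tested. Python 3.11.15, pandas 2.3.3, numpy 2.4.6, statsmodels 0.14.6 and matplotlib 3.10.9 were used.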

Additional observations from a re-analysis of the deposited data

How the results depend on the processing

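The median difference of the proteasome genes lay below 0 under all 9 alternatives, from -0.17 to -0.11, as did those of the core (-0.15 to -0.10) and of the 19S genes (-0.19 to -0.11). Core minus 19S had no settled sign: it was 0.011 in the main setting and -0.016 with the mean of probe sets, -0.023 with the lowest probe set, -0.0058 with Sem1 added and -0.040 among genes with a single probe set, an alternative chosen after seeing the data. The number of members at least 1.2-fold lower was 6 after lowess centring, against 12 in the main setting, and 8 to 13 otherwise. The number at least 1.2-fold higher was 0 throughout. Over all genes, counts at least 1.2-fold lower and higher were 3340 and 2365 without the level filter and 561 and 350 with the 75th percentile filter, which tests fewer genes. Of 75 alternative values, 66 kept their direction and moved by at most 0.05 on the log2 scale or, for counts, 1.5 times. Adrm1 was not analysed here, so only Sem1 was added. Leaving out an array was not possible with 1 array per group. No paired analysis was possible because each group had 1 array. Signal of dim genes is close to background, which limits Psma8, Psmb11 and Psmc3ip.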
